A study of Homo sapiens with 4 samples.

Results

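The kinesins are the family of motor proteins that walk along microtubules or take them apart. The members were chosen by gene symbol: 42 of the 26364 symbols in the count table were KIF followed by a number (with or without one of the letters A to C) or KIFC1, KIFC2 or KIFC3. The rule itself uses measured values for 1 gene. KIFC1 was set apart because its counts were near 0 in the vehicle libraries, so its values are described here without a test. The other 41 members were divided by known role into 13 mitotic kinesins, 17 transport kinesins and 11 kinesins that are ciliary, atypical or of mixed role.

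The cells were Ishikawa cells, an established line from an endometrioid adenocarcinoma of the uterus, in which estrogen receptor alpha, encoded by ESR1, had the Y537S substitution of its ligand-binding domain. All 4 libraries came from mutant cells, grown in medium depleted of hormones for days and then treated for 8 h with 0.1% DMSO, the vehicle (2 libraries), or with 10 nM estradiol, E2 (2 libraries). The question posed was what this receptor variant does to transcription. The labels name 2 clones and the table names its libraries A4 and B212, and no label ties the clones to these tags. Each tag had 1 DMSO and 1 E2 library, and cells without the mutation were not analysed here. Nothing in the labels says that the cells were grown as independent cultures beyond the clones, so p-values measure the spread between these libraries.

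A kinesin is built around a motor domain that splits ATP and steps along the microtubule track, joined to a tail that holds the cargo or a second filament. Transport kinesins carry vesicles, mitochondria and protein complexes through the cytoplasm, mostly toward the growing ends of microtubules. Mitotic kinesins build the spindle, line up the chromosomes and complete cell division, and their genes are switched on late in the cell cycle by a promoter code. In that code the CHR element (cell cycle genes homology region), bound by the DREAM and MuvB complexes, lies close to the start site, and CCAAT boxes bound by NF-Y lie next to it. Estrogens drive the proliferation of the endometrial epithelium, so kinesins of division are commonly read as a measure of cycling in this tissue.

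The 4 mitotic promoters shown first belong to the mitotic kinesins with the largest difference between the tags, given further on. KIF11 and KIF23 follow as members with both elements and smaller differences. Each runs from 250 bases before to 50 bases after the RefSeq gene start (GRCh38.p14), 5′ to 3′ on the gene's strand. Capitals mark TTTGAA or TTCGAA, the CHR sequence, and CCAAT, on either strand. KIF20A lies at chr5:138178862-138179161 (+ strand), KIF22 at chr16:29790501-29790800 (+), KIF14 at chr1:200620702-200621001 (- strand), KIF2C at chr1:44739587-44739886 (+), KIF11 at chr10:92592880-92593179 (+) and KIF23 at chr15:69414099-69414398 (+).
KIF20A: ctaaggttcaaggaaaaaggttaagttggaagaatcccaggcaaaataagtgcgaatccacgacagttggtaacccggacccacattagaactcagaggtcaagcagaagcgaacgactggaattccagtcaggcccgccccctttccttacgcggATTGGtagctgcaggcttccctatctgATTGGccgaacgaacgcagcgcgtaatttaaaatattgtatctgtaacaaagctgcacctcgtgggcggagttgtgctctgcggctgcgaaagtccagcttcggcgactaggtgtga
KIF22: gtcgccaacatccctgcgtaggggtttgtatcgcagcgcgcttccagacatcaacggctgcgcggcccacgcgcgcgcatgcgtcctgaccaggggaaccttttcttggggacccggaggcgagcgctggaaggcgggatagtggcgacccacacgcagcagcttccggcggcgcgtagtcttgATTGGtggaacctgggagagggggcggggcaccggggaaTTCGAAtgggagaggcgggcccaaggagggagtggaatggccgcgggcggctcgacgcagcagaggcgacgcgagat
KIF14: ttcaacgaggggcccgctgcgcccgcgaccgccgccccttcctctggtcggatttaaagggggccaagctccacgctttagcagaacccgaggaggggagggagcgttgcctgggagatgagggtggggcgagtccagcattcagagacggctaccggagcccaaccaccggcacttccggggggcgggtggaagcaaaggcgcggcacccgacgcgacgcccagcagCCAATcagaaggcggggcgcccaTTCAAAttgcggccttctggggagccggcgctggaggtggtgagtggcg
KIF2C: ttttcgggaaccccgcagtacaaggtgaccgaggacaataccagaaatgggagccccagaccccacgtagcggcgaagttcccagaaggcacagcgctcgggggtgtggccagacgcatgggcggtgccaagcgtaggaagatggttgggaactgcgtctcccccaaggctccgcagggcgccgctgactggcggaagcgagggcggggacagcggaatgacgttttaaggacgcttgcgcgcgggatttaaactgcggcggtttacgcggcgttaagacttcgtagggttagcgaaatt
KIF11: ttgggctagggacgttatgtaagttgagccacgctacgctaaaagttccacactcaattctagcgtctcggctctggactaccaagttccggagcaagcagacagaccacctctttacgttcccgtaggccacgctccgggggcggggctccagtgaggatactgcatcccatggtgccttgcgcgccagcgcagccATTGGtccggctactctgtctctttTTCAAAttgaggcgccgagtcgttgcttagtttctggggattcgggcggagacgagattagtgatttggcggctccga
KIF23: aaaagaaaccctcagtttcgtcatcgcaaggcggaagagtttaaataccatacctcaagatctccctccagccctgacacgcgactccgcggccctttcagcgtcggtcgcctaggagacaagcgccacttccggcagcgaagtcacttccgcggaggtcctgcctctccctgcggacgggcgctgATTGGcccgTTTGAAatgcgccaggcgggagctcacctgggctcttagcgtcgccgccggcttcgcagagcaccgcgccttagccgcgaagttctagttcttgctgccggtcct

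Of the mitotic promoters, 9 of 13 held both a CHR sequence and a CCAAT box, against 6.58% of 27305 promoters of the same length. Among transport kinesins 1 of 12 with a promoter in the table did, and that was KIF5B. In the mixed class it was 1 of 8, KIF24. KIFC1 held both. In KIF22 the box began 66 bases and the CHR sequence 27 bases before the start, in KIF11 53 and 28, and in KIF23 64 and 55. KIF20A had 2 CCAAT boxes and no exact CHR sequence, and KIF2C had neither in this window. GGTCA, one arm of the estrogen response element, on either strand, was in 5 of 13 mitotic, 3 of 12 transport and 37.7% of all promoters. A full palindromic element with a spacer of 3 bases was in 0 of the matched mitotic, transport and mixed promoters, and in 0.0659% of all promoters. These matches describe letters in a window and show no binding.

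The libraries held 71575816 to 85222856 counts, of which the 42 kinesins took 0.320% to 0.359%. Of the 15599 genes that passed the filter on low counts, 38 were kinesins other than KIFC1. KIF2B, KIF19 and KIF25 did not pass: KIF2B, a mitotic kinesin, had 0 counts in each library, which allows up to 3 in each, KIF19 had at most 1 and KIF25 at most 3. The epithelial markers EPCAM, CDH1, KRT8, KRT18, KRT19, PAX8 and ESR1 were all present and summed to 2298 to 3059 CPM, the count relative to the library size after TMM scaling. Markers of endothelium summed to 2.30 to 5.11 CPM and those of leukocytes to 1.87 to 2.98 CPM, with PECAM1, CD3E and LST1 at 0. The 5 fibroblast markers summed to 93.4 and 129.2 CPM in A4 and to 34.9 and 42.8 CPM in B212, nearly all of it COL1A1, with DCN at 0 or 1 count.

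Per kilobase of transcript, mitotic kinesins were the most abundant class. Their summed level was 423.1 (A4 DMSO), 402.5 (A4 E2), 368.2 (B212 DMSO) and 352.1 (B212 E2) CPM per kilobase. The transport class, although larger, summed to 238.8, 212.02, 221.3 and 212.2 CPM per kilobase in the same order, and the mixed class to 44.4 to 50.03. The mitotic sum exceeded the transport sum in every library.

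KIF11, the tetrameric motor that pushes spindle poles apart, stood at 94.0, 84.0, 89.5 and 81.7 CPM per kilobase in A4 DMSO, A4 E2, B212 DMSO and B212 E2. KIF5B, the ubiquitous heavy chain of conventional kinesin, stood at 93.2, 86.3, 87.5 and 85.4 CPM per kilobase. The ranges of these 2 genes overlapped, and every other tested kinesin had a mean of 48.1 CPM per kilobase or less. Below KIF11 among the mitotic members came KIF20A, the motor of the central spindle (mean 48.1 CPM per kilobase), KIF2C, the depolymerase at centromeres (44.2), and KIF23, a subunit of centralspindlin (40.3). KIF20B, a cytokinesis motor (36.4), KIF4A, a chromosome-bound motor that shortens midzone microtubules (28.8), KIF22, the chromokinesin Kid (28.2), and KIF18A, which damps chromosome movements (25.3), followed. KIF15, which works beside KIF11 on spindle bipolarity, had a mean of 18.7 CPM per kilobase, KIF14, a motor of late cytokinesis, 15.5, and KIF18B, which acts on astral microtubules, 12.2. KIF4B, an intronless near-copy of KIF4A, had 1.42. How reads were divided between those 2 is not known, so KIF4B is uncertain.

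**Figure D1:**
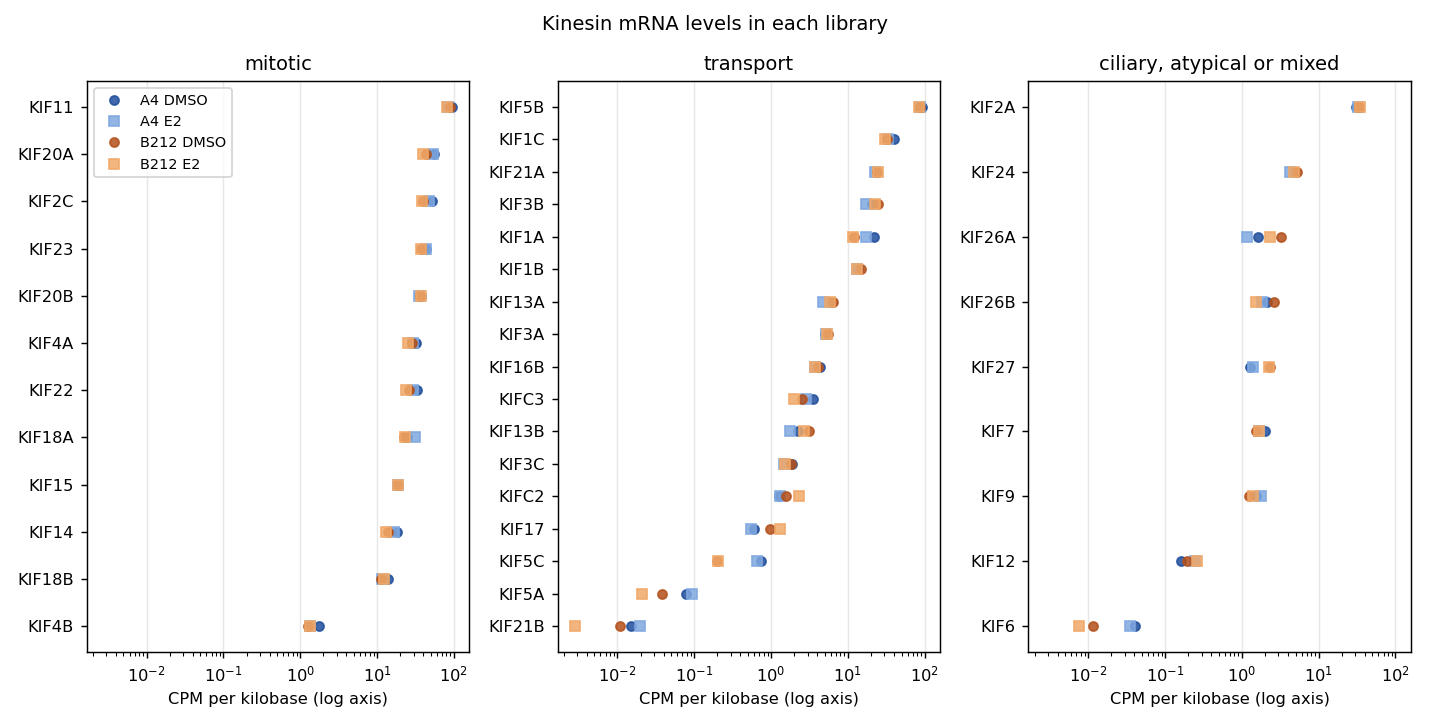
CPM per kilobase of transcript (log axis) of the 38 tested kinesins in each library, circles for DMSO and squares for E2, blue for A4 and orange for B212, by class. KIF11 and KIF5B lead, at 81.7 to 94.0 CPM per kilobase, and the mitotic members except KIF4B have means of 12.2 CPM per kilobase or more.

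The transport class spread more widely, from a mean of 88.1 CPM per kilobase for KIF5B to 0.0121 for KIF21B. After KIF5B came KIF1C, a motor of Golgi and integrin traffic (33.8), KIF21A, which slows microtubule growth at the cell edge (23.7), and KIF3B, a subunit of the kinesin-2 motor that serves cilia (21.2). KIF1A, best known as the motor of synaptic vesicle precursors in neurons, had 15.8 CPM per kilobase, above KIF1B, a mitochondrial and vesicle motor, with 13.7. The neuron-enriched heavy chains of conventional kinesin were low, KIF5C at 0.452 and KIF5A at 0.0577. Of the mixed class, KIF2A, a depolymerase of spindle poles and neurites, led with 32.9 CPM per kilobase. The next was KIF24, a centriolar depolymerase, with 4.74, and KIF6, a motor of motile cilia, was the lowest of that class at 0.0237.

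KIFC1 is the minus-end motor that clusters spindle poles and extra centrosomes. It had 0 counts in A4 DMSO, 13 in A4 E2, 2 in B212 DMSO and 202 in B212 E2. Both E2 libraries were above both DMSO libraries, and 1 library, B212 E2, held nearly all of the counts. Against a floor of 3 counts in its DMSO library, A4 was 3.87-fold higher with E2, a ratio that leaves out the counting error of the 13 counts. Set against the same 3 counts, B212 was 78.4-fold higher with E2. Each tag had 1 library per treatment, so neither ratio has a measured spread. KIFC1 was set apart for its low DMSO counts, so its rise above them is described only and was not tested. Even the highest level, 2.76 CPM, was under that of KIF4B, the lowest tested mitotic member, at 5.54 to 7.70 CPM.

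The genes beside KIFC1 were low as well. Of the 18 genes considered, taken from the 10 places on each side in the RefSeq gene order, 10 were in the table and 8 of these were protein coding. TAPBP, the tapasin of antigen presentation, had 5, 6, 7 and 4 counts in A4 DMSO, A4 E2, B212 DMSO and B212 E2, and CUTA had 0, 2, 3 and 4. ZBTB22 had 0 in each and RGL2 at most 4. ZBTB9 had 24 to 47 counts, DAXX, a histone chaperone, 72 to 95 and PHF1, a Polycomb partner, 111 to 133. Among the 8 only BAK1, an activator of apoptosis and the farthest of them, was at 1123 to 1960 counts, near the median of tested genes (1494 to 1746). The part of this low stretch in the KIFC1 counts was not tested, and the values of KIFC1 are uncertain.

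**Figure D2:**
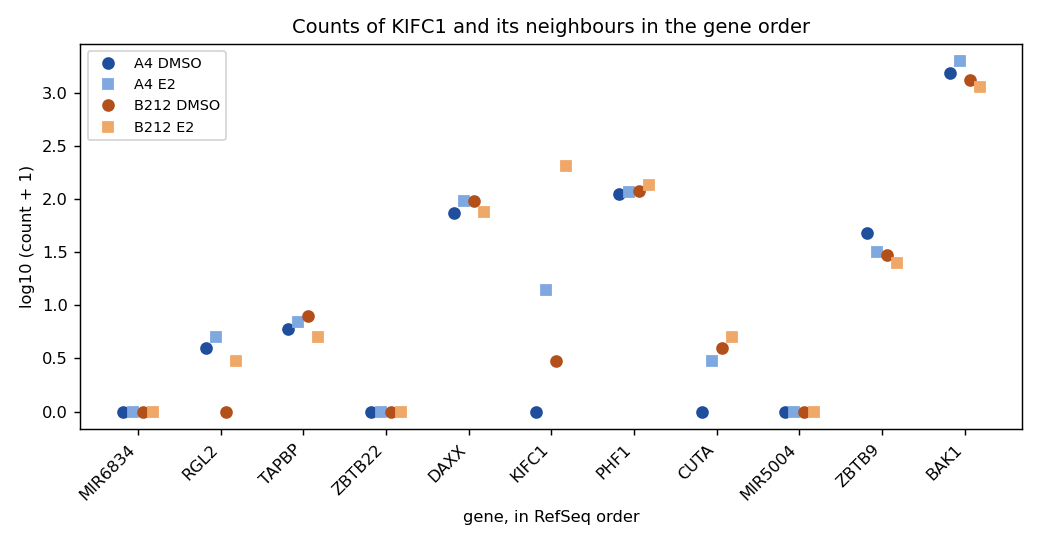
Counts of KIFC1 and 10 neighbours in the table, as log10 (count + 1), in RefSeq gene order; circles are DMSO and squares E2 libraries. Of the 8 coding neighbours drawn, 7 stay at 133 counts or fewer in every library, and KIFC1 reaches 202 in B212 E2 only.

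The first comparison asked which kinesin mRNAs changed with E2. With the tag taken as a block, 3 of 38 kinesins passed the threshold (edgeR adjusted p under 0.05), all lower with E2, where 9.56% of all tested genes did, 6.13% higher and 3.44% lower. The 3 were KIF26A, KIF26B and KIF13B, none of them a mitotic kinesin. With no block, 0 kinesins passed by edgeR, DESeq2 or limma-voom, and 0 of 38 had an unadjusted p under 0.05. In that fit 0% of all genes passed, and the biological coefficient of variation, edgeR's measure of spread, was 32.2%, against 5.99% with the block. The blocked count of 3 is near the background share, and lies in the direction of the smaller share.

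KIF26A and KIF26B are atypical kinesins whose motor domains lack ATPase activity. KIF26A had 800 (A4 DMSO), 641 (A4 E2), 1837 (B212 DMSO) and 1131 (B212 E2) counts, or 10.9, 7.81, 21.5 and 15.4 CPM. It was lower with E2 in both tags, by a like ratio, and the DMSO and E2 groups overlapped because B212 stood higher. It fell by 0.48 ± 0.094 (log2, SE) with the block (edgeR adjusted p = 0.00458). With no block the same log2 fold change had an SE of 0.50, and in that fit it ran from -1.05 without B212 E2 to 0.074 without B212 DMSO, as the tags are then unequally shared between the groups.

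KIF26B, which acts in WNT5A-ROR signalling and is implicated in cell polarity, had 1888, 1804, 2692 and 1372 counts in A4 DMSO, A4 E2, B212 DMSO and B212 E2, or 25.8, 22.0, 31.5 and 18.7 CPM. Both E2 libraries were below both DMSO libraries. Within A4 the log2 fold change was -0.23 and within B212 -0.75, and it was -0.49 ± 0.10 (SE) with the block (edgeR adjusted p = 0.00628). Leaving out 1 library at a time with no block gave -0.36 (without B212 DMSO) to -0.63 (without A4 DMSO).

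KIF13B, also called GAKIN, a motor that carries DLG1 and lipid raft cargo, had 1459, 1251, 2351 and 1712 counts in the same order, or 19.9, 15.2, 27.5 and 23.4 CPM. It was lower with E2 in each tag, and the groups overlapped. It fell by 0.31 ± 0.086 with the block (edgeR adjusted p = 0.0293). The call was not made with DESeq2 size factors or DESeq2, and with no block the value was -0.025 without A4 E2 and -0.061 without B212 DMSO.

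**Figure D3:**
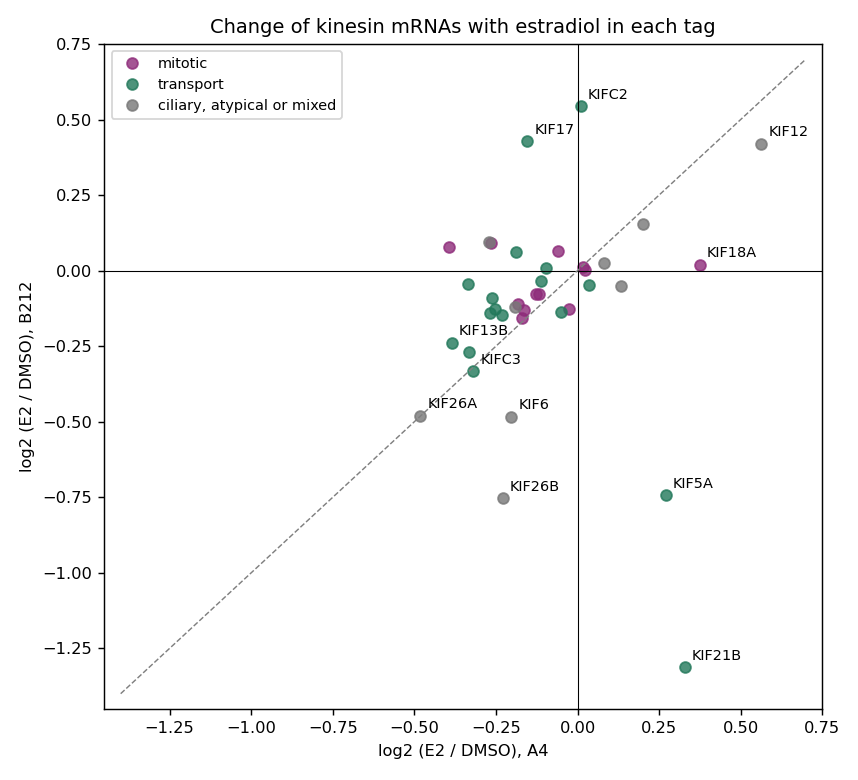
Log2 ratio of E2 to DMSO in A4 (x axis) and in B212 (y axis) for the 38 tested kinesins, 1 library per treatment in each tag, coloured by class, with the line of equal change dashed. KIF26A lies on the line at -0.48 in both tags, and KIF26B is further down in B212 (-0.75) than in A4 (-0.23).

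Mitotic kinesins did not pass for E2 in either fit. With the block, 0 of 12 passed by edgeR, DESeq2 or limma-voom, and 2 had an unadjusted p under 0.05 by edgeR, against 25.3% of all tested genes. Their log2 fold changes ran from -0.16 (KIF4A) to 0.20 (KIF18A) with a median of -0.092, against -0.0081 over all tested genes, with SEs of 0.068 to 0.13. Within tags the median was -0.12 in A4 and -0.037 in B212. 3 members were higher with E2 in both tags, 6 lower in both and 3 split. Over the 15599 tested genes these counts were 5190, 5743 and 4645. With no block the median was -0.096, and it ran from -0.24 without B212 DMSO to 0.071 without A4 DMSO. In those fits the tags are unequally shared between the groups, so the range carries the tag difference as well.

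KIF18A had the largest value of the class. Its counts were 6336 (A4 DMSO), 9203 (A4 E2), 6903 (B212 DMSO) and 6011 (B212 E2), or 86.5, 112.2, 80.9 and 82.0 CPM. The A4 E2 library stood above the other 3, and the tags gave log2 fold changes of 0.37 and 0.020. With the block it was 0.20 ± 0.080 (edgeR adjusted p = 0.123). KIF11 went from 456.9 to 408.0 CPM in A4 and from 435.0 to 397.1 CPM in B212. Both E2 libraries of KIF11 were below both DMSO libraries, as in 1 mitotic, 4 transport and 6 of all 38 kinesins, against 11.8% of tested genes. Its log2 fold change was -0.15 ± 0.071 (edgeR adjusted p = 0.199). KIF20A was at 176.9 and 173.6 CPM in A4 and at 138.8 and 127.0 CPM in B212. Its log2 fold change was -0.077 ± 0.069 (edgeR adjusted p = 0.522), and KIF15 and KIF23 were at 0.015 and 0.012.

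Most transport kinesins had small negative values for E2. With the block 15 of 17 had a negative log2 fold change, as did 51.5% of all tested genes, and the median was -0.18. KIF13B alone passed, while 9 of 17 had an unadjusted p under 0.05, against 25.3% of all tested genes. The nearest to the threshold was KIFC3, a minus-end motor at cell junctions, at -0.33 ± 0.10 (edgeR adjusted p = 0.0536). KIF3C, a kinesin-2 subunit, was at -0.30 ± 0.11 (adjusted p = 0.0746) and KIF3B at -0.19 ± 0.070 (adjusted p = 0.0892). KIFC2, a minus-end motor described in neurons, was the highest at 0.29 ± 0.13 (adjusted p = 0.176), with 336, 379, 477 and 598 counts in A4 DMSO, A4 E2, B212 DMSO and B212 E2. KIF5B, the most abundant, was at -0.074 ± 0.072 (adjusted p = 0.559).

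These values also moved when a trend over transcript length and GC content was taken out. The tested transport kinesins had a median transcript of 6325 bases, the mitotic kinesins 4282.5 and all tested genes 3272. When a smooth curve over length and GC content was taken out of each library, the transport median became -0.027 and 12 of 17 were negative. The curve was fitted to these same libraries, so it also takes out any E2 change that tracks length or GC content. KIF1A went from -0.19 to 0.012 and KIF1C from -0.18 to -0.0021. The mitotic median became -0.065. KIF13B was then at -0.14 (edgeR adjusted p = 0.294), KIF26A at -0.29 (0.0159) and KIF26B at -0.34 (2.45e-04). KIFC2 passed in the higher direction, at 0.42 (edgeR adjusted p = 0.00661). With no curve taken out it was at 0.010 in A4 and 0.54 in B212, with 1 library per treatment in each. The 2 KIF26 genes thus kept their direction and call with the curve taken out, with smaller values, and KIF13B did not keep its call. In that fit a like ratio of value to SE gave a smaller p than with the block alone. Its calls thus rest on a looser test and cannot be set beside the blocked calls as equals.

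**Figure D4:**
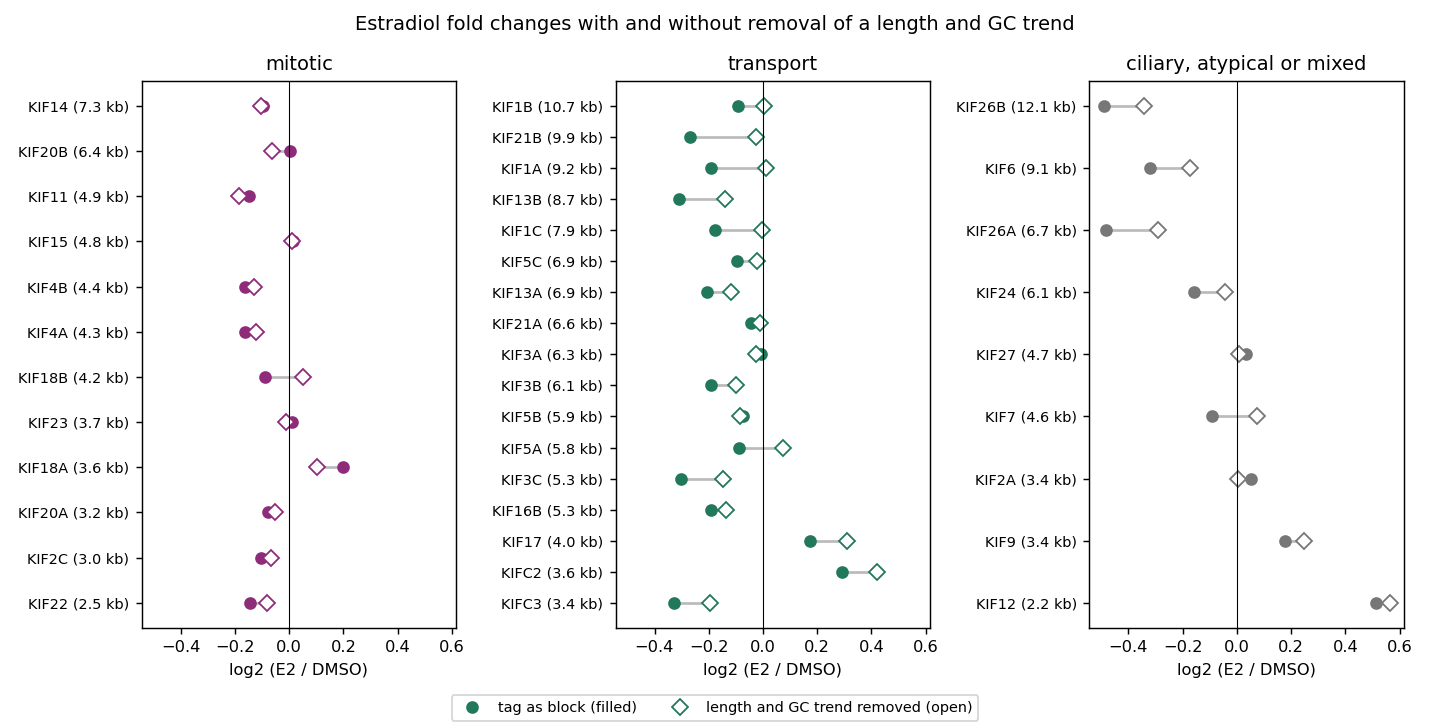
Log2 ratio of E2 to DMSO with the tag as a block (filled circles) and after a curve over length and GC content was taken out (open diamonds), for each tested kinesin, sorted by transcript length in kilobases. Most transport members move toward 0, and KIF26A and KIF26B stay at -0.29 and -0.34.

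The partners of the kinesins gave the following with the block. Of 25 spindle and cytokinesis genes, 3 passed, all higher with E2, near the 9.56% of all tested genes (6.13% higher and 3.44% lower). They were HMMR, a spindle pole protein, by 0.30 on the log2 scale, NUF2, a kinetochore subunit, by 0.29, and CCNB1, cyclin B1, by 0.27. Their edgeR adjusted p-values were 0.0218, 0.0239 and 0.0451. The rises were larger in A4 than in B212, with 1 library per treatment in each tag. They were 0.47 and 0.13 for HMMR, 0.44 and 0.13 for NUF2, and 0.44 and 0.090 for CCNB1. DESeq2, and edgeR with DESeq2 size factors, called 0 of the 25, limma-voom 2. Over all 15599 tested genes DESeq2 called 354 higher and 179 lower. It was 455 and 262 for edgeR with DESeq2 size factors, and 757 and 381 for limma-voom. With the curve over length and GC content taken out, HMMR was at 0.18 (edgeR adjusted p = 0.0416). NUF2 at 0.12 (0.263) and CCNB1 at 0.17 (0.128) no longer passed, while BIRC5, survivin, passed at 0.23 (0.00942). With no curve taken out BIRC5 was at 0.33 in A4 and 0.051 in B212. CENPE, the kinetochore kinesin whose symbol falls outside the rule, was at -0.0094 (adjusted p = 0.950). Of 16 cargo adaptors and light chains 0 passed by edgeR, DESeq2 or limma-voom, with a median of -0.12. By edgeR 5 had an unadjusted p under 0.05, against 25.3% of all tested genes. KLC1, a light chain of conventional kinesin, was at -0.19 (adjusted p = 0.0904) and MAPK8IP3, a JNK scaffold that links kinesin-1 to cargo, at 0.31 (0.0811). With the curve taken out the median of the 16 was -0.035. MAPK8IP3 then passed at 0.50 (edgeR adjusted p = 4.78e-07) and KIAA1279, a kinesin-binding protein, at -0.19 (0.0358). With no curve taken out, MAPK8IP3 was at 0.026 in A4 and 0.59 in B212, and KIAA1279 at -0.18 and -0.072. Partner calls with the curve taken out rest on the looser test described above. Of 8 regulators of mitotic genes 0 passed by the same 3 tools. By edgeR 4 had an unadjusted p under 0.05, against the same 25.3%, and 2 with the curve taken out. FOXM1 was at -0.17 (0.134), MYBL2 at -0.20 (0.0811), and the MuvB subunits LIN9 and LIN52 at 0.22 (0.0808) and 0.24 (0.0658).

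The second comparison set B212 against A4, with treatment as a covariate. Here 21 of 38 kinesins passed (edgeR adjusted p under 0.05), 7 higher and 14 lower in B212, where 51.0% of all tested genes did, 25.2% higher and 25.8% lower. The total is near the background. Scaled by library size alone, the kinesins split into 8 higher and 10 lower, and over all genes 4761 higher and 3176 lower in place of 3927 and 4023. Both tags carry the mutation, so its effect is not part of this comparison. The fibroblast marker sum was lower and the epithelial sum, at 2298 and 2450 CPM in A4 and 2774 and 3059 CPM in B212, was higher in B212, and their part in the tag differences was not tested.

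In the mitotic class every call was in 1 direction. KIF20A, KIF22, KIF14, KIF2C, KIF18A, KIF23 and KIF4A passed, 7 of 12, all lower in B212, and 0 were higher, beside 25.8% of all tested genes called lower. The median log2 difference was -0.23, against 0.0042 over all tested genes, and it was -0.24 in the DMSO and -0.21 in the E2 libraries. For 7 of 12 both B212 libraries were below both A4 libraries, against 32.8% of tested genes. The 7 stayed 7 with DESeq2 size factors, DESeq2 and limma-voom, and became 5 with library sizes alone and 8 once the curve over length and GC content was taken out. With no treatment term it was 4, where 2159 of 15599 tested genes were called lower, in place of 4023. Leaving 1 library out of that fit leaves 1 in a tag, and the median was then -0.18 to -0.26. Without either B212 library the calls of the class were lost, and calls fell over all tested genes as well. KIF20A, KIF22, KIF14 and KIF2C, given next, were among the calls lost without either B212 library, and KIF22 also without A4 DMSO. KIF18A differed by -0.097 between the DMSO and -0.45 between the E2 libraries, so its call leans on the high A4 E2 library.

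KIF20A had 12952 and 14241 counts in A4 (DMSO, E2) and 11846 and 9307 in B212, or 176.9, 173.6, 138.8 and 127.0 CPM. Its groups did not overlap, and it differed by -0.40 ± 0.069 (log2, SE; edgeR adjusted p = 7.39e-05). KIF22 was at 84.0 and 74.1 CPM in A4 and at 64.5 and 59.8 CPM in B212, a difference of -0.35 ± 0.071 (adjusted p = 4.34e-04). KIF14 was at 131.1 and 120.8 CPM in A4 and at 101.8 and 96.4 CPM in B212, a difference of -0.34 ± 0.069 (adjusted p = 3.00e-04). KIF2C was at 152.2 and 139.2 CPM in A4 and at 118.3 and 112.1 CPM in B212, a difference of -0.34 ± 0.069 (adjusted p = 3.75e-04). In each of the 4 the lower A4 library was above the higher B212 library. Of the 4, KIF22 and KIF14 held both promoter elements, KIF20A the CCAAT box alone and KIF2C neither.

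The most abundant mitotic motor did not share the difference. KIF11 was at 456.9 and 408.0 CPM in A4 and at 435.0 and 397.1 CPM in B212, a difference of -0.055 ± 0.071 (edgeR adjusted p = 0.543). KIF15 (0.025), KIF20B (0.021) and KIF18B (-0.094) did not pass either. KIF11, KIF20B and KIF18B held both promoter elements and KIF15 the CHR sequence. KIF22, KIF14, KIF18A, KIF23 and KIF4A also held both and were lower.

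Of the 25 spindle and cytokinesis genes, 15 were lower and 1 higher in B212, beside 25.8% and 25.2% of all tested genes. Their median was -0.22. With no treatment term 8 were lower, where 2159 of 15599 tested genes were, in place of 4023. With 1 library left out of that fit the median was -0.22 to -0.29. Without either B212 library calls fell in this list, as they did over all tested genes. AURKB, the kinase of the chromosomal passenger complex, was lower by a log2 difference of -0.73 and PLK1, a kinase of mitotic entry and exit, by -0.71. CDC20, the activator of the anaphase-promoting complex, was at -0.55 and CDCA8, a passenger subunit, at -0.49, and the largest edgeR adjusted p of these 4 was 8.02e-06 (CDCA8). CIT, citron kinase, was the member called higher, at 0.23 (adjusted p = 0.0133). CENPE (-0.069) and PRC1 (0.022), the midzone cross-linker on which KIF4A works, did not pass. Of the 8 regulators, E2F1 was higher by 0.51, and E2F4 (-0.30), LIN9 (-0.26) and LIN52 (-0.21) were lower. The shares over all tested genes were 25.2% higher and 25.8% lower. With no treatment term 0 of the 8 were lower, where 2159 of all tested genes were. With 1 library left out of that fit the median of the 8 was -0.038 to -0.16. The E2F1 call was lost when B212 DMSO was the library left out. FOXM1 (-0.13) and MYBL2 (0.080) did not pass. The share of dividing cells and the RNA per cell cannot be told apart in these bulk libraries.

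**Figure D5:**
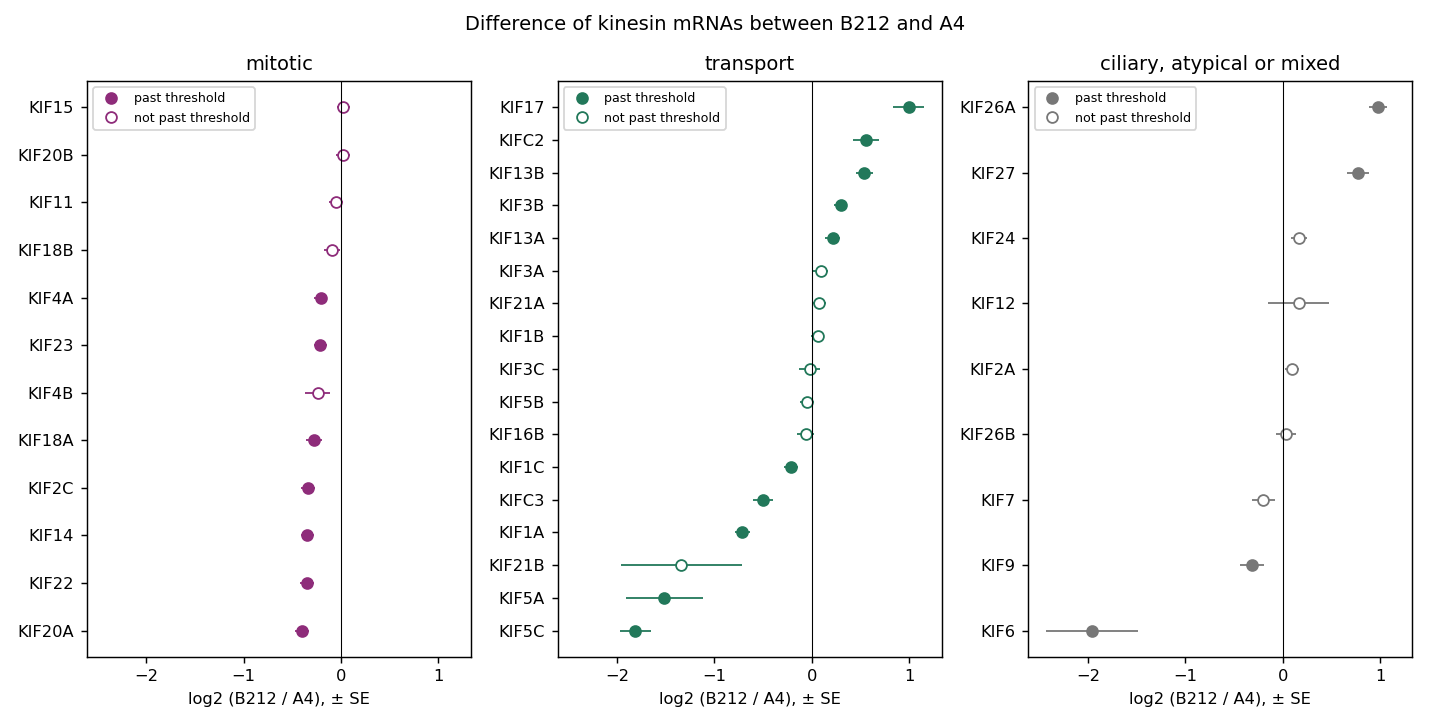
Log2 ratio of B212 to A4 with its SE for each tested kinesin, by class; filled points passed the threshold and open points did not. The 7 filled mitotic points lie between -0.21 and -0.40, while transport points range from -1.81 to 1.00.

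Transport kinesins went both ways, 5 higher and 5 lower in B212 of 17, near the 25.2% and 25.8% of all tested genes. Their median was -0.021, and it turned to 0.045 with library sizes alone and to 0.058 with at least 10 counts asked of every library. KIF5C, a heavy chain enriched in neurons, had 381 and 374 counts in A4 (DMSO, E2) and 116 and 104 in B212. Both B212 libraries were far below both A4 libraries, a log2 difference of -1.81 ± 0.16 (edgeR adjusted p = 8.42e-09). KIF5A, the other neuronal heavy chain, had 33, 45, 19 and 9 counts and differed by -1.51 ± 0.40 (adjusted p = 0.00349), while KIF5B did not pass (-0.053 ± 0.072, adjusted p = 0.561). KIF1A was at 202.6 and 160.4 CPM in A4 and at 111.7 and 108.2 CPM in B212, a difference of -0.71 ± 0.076 (adjusted p = 1.73e-07). KIFC3 (-0.50) and KIF1C (-0.22) were also lower.

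KIF17, a kinesin-2 motor of cilia and dendrites, was higher in B212, with 175 and 176 counts in A4 and 331 and 383 in B212. The difference was 1.00 ± 0.16 (edgeR adjusted p = 2.82e-05), 0.69 between the DMSO and 1.27 between the E2 libraries. KIFC2 had 336 and 379 counts in A4 and 477 and 598 in B212, a difference of 0.56 ± 0.13 (adjusted p = 0.00176). Without a treatment term its adjusted p was 0.0644, and without B212 E2 the difference was 0.28 (adjusted p = 0.408). KIF13B (0.54), KIF3B (0.30) and KIF13A, an endosome motor (0.21), were also higher. KIF3A, the partner of KIF3B in kinesin-2, did not pass (0.091 ± 0.079, adjusted p = 0.358), nor did KIFAP3, the accessory subunit of that motor (-0.088, adjusted p = 0.397). Of the 16 cargo partners 4 passed, against 51.0% of all tested genes. MAPK8IP3 and HAP1, a huntingtin-associated adaptor, were higher (0.28 and 0.88) and the light chains KLC2 and KLC1 lower (-0.33 and -0.19). With DESeq2 size factors and with limma-voom 0 of the 16 were higher, where 3695 and 3860 of 15599 tested genes were. With no treatment term 0 were called, where 2297 of all tested genes were higher and 2159 lower. MAPK8IP3 differed by -0.011 between the DMSO and 0.55 between the E2 libraries, and HAP1 had only 17 to 41 counts.

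In the mixed class KIF26A was higher in B212 by 0.98 ± 0.095 (edgeR adjusted p = 4.38e-08), by 0.98 in both treatments, so its tag difference was about as large in E2 as in DMSO. KIF27, a relative of KIF7 in ciliary biology, had 432 and 531 counts in A4 and 918 and 761 in B212, a difference of 0.77 ± 0.11 (adjusted p = 7.53e-06). KIF9, a motor of motile cilia, had 377 and 486 counts in A4 and 359 and 343 in B212, a difference of -0.32 ± 0.12 (adjusted p = 0.0406). That call was not made by DESeq2 (adjusted p = 0.218), limma-voom (0.0521) or library sizes alone (0.113), and KIF9 has an antisense gene, so it is uncertain. KIF6 had 27, 26, 9 and 5 counts in A4 DMSO, A4 E2, B212 DMSO and B212 E2 and differed by -1.96 ± 0.47 (adjusted p = 0.00178). DESeq2 called 0 members of the class lower, though it may give a gene of so few counts no adjusted p. Without B212 E2 no member of the class was called lower. KIF26B, which fell with E2, did not differ beyond its error between the tags (0.035 ± 0.10, adjusted p = 0.796), a value that averages 0.29 between the DMSO and -0.23 between the E2 libraries, nor did KIF7, the hedgehog regulator at the ciliary tip (-0.20 ± 0.12, adjusted p = 0.167), or KIF2A (0.097 ± 0.069, adjusted p = 0.250).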

How the data were processed

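The authors deposited one table of raw counts, whole numbers of reads for each gene symbol. Per the submitters' processing notes HISAT2, SAMtools, featureCounts, DESeq2 and hg19 were used, with no role given. The annotation, the strand setting and the handling of reads with several matches are not given in the sources used here, so near-copies and antisense genes are uncertain. Per the labels' protocols, libraries were stranded and made from 500 ng of poly(A)-selected RNA each. The table held 4 further columns that name no sample of the series, and they were not used.

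Counts were filtered (edgeR 4.0.16 filterByExpr, minimum 10, 15599 genes kept, with KIFC1 among them but given no test), scaled by TMM and tested with edgeR's quasi-likelihood test in R 4.3.3, with Benjamini-Hochberg adjustment over all genes and a threshold of 0.05. The first E2 fit had no block and the second had the tag as a replicate block. Same-tag libraries deviated together from their group means (Pearson r = 0.871 across genes, which are not independent replicates), and 1 pair per tag is all the design holds. Alternatives were DESeq2 1.42.0, limma-voom (limma 3.58.1), other scalings and filters, a stricter threshold, each library left out, and removal of a smooth curve over length and GC content (mgcv 1.9.3, GENCODE 29 transcripts, 96.9% of tested genes with a length). On simulated data with 200 of 15483 genes changed by 1 on the log2 scale, the E2 fit recovered 0 with 0 false calls without the block, and 194 with 15 false calls with it. The simulated counts held the tag differences and the spread of the blocked fit. The change was the same in both tags and was given to genes with a mean of at least 50 counts. These settings favour the block, so the result does not give the power or error rate in the real libraries. CPM used TMM-scaled library sizes.

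Promoters came from RefSeq GRCh38.p14 and 34 members matched by symbol; their coordinates are of that build and not of the counts. Named in full were KIFC1, every other member past the threshold for E2 in either fit and, for the tags, the 4 in each class with the largest change past the threshold and a mean of at least 50 counts. Other members were named after their values were seen. The members and lists were chosen with earlier results of these data known. Some genes beside KIFC1 are not reported here. Figures were drawn with matplotlib 3.10.9 in Python 3.11.15.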

Additional observations from a re-analysis of the deposited data

Results flagged for a closer look

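For 11 of 38 kinesins, a share like the 29.8% of all tested genes, the log2 ratio of E2 to DMSO had opposite signs in the 2 tags. Each tag had 1 library per treatment, so these differences were not tested. Among transport kinesins KIF17 was at -0.15 in A4 and 0.43 in B212, and KIF5C at -0.19 and 0.061. KIF3A was at 0.035 and -0.047, and KIF21A at -0.096 and 0.0098. KIF21B (0.33 and -1.31) and KIF5A (0.27 and -0.74) rested on 45 counts or fewer in each library. Among mitotic kinesins KIF18B was at -0.27 and 0.093, KIF20B at -0.060 and 0.064 and KIF4B at -0.39 and 0.078. In the mixed class KIF7 was at -0.27 and 0.094, and KIF27 at 0.13 and -0.051. Over all 38 tested kinesins 7 were higher with E2 in both tags and 20 lower in both. Of all 15599 tested genes, 5190 were higher in both and 5743 lower in both.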

How the results depend on the processing

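For E2, 0 kinesins were called without the block under each scaling, filter and tool run. With the tag as a replicate block (paired libraries), 3 were called. The paired count was 2 at an adjusted p under 0.01, 2 with DESeq2 size factors, 2 with DESeq2, 4 with library sizes alone, 3 with limma-voom and 3 once the curve over length and GC content was taken out (1 higher, 2 lower). That last fit gave smaller p-values for a like ratio of value to SE. Over all genes the blocked split was 956 higher and 536 lower, and 911 and 775 with library sizes alone. It was 455 and 262 with DESeq2 size factors, 354 and 179 with DESeq2 and 757 and 381 with limma-voom. With the curve taken out it was 947 and 394. Between the tags 21 kinesins were called, 16 to 23 under other scalings, filters, tools and thresholds, 12 with no treatment term and 6 to 15 with 1 library left out. The leave-one-out range for E2 was -1.05 to 0.074 for KIF26A, -0.63 to -0.36 for KIF26B and -0.64 to -0.025 for KIF13B. These fits had no block and an unequal share of tags in the groups, and a lone library was assumed to vary like the others. Counts of 45 or fewer limit KIF5A, KIF6, KIF12 and KIF21B.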
